A study of Mus musculus with 12 samples.

Results

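Oxidative phosphorylation (OXPHOS) genes encoded in the nucleus were compared between the skin of AD mice and that of HF + AD mice. Members were all entries of the count tables whose symbol begins with Nduf (without the Ndufaf assembly factors), Uqcr, Atp5, or Cox4 to Cox8, together with Sdha, Sdhb, Sdhc and Sdhd. This rule uses names alone and found 85 of 23282 entries: 38 in complex I, 4 in complex II, 8 in complex III, 18 in complex IV and 17 in complex V. No symbol with the pseudogene ending was met, and no member was listed more than once. Atp5s and Atp5sl carry the names of coupling factors and are not subunits, and Ndufa4, counted here under complex I by its name, is assigned to complex IV today.

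Dorsal skin of male wild-type C57BL/6J mice, 5 weeks old when bought, was used, with 5 AD mice and 7 HF + AD mice and 1 library per mouse. Every mouse of both groups had AD-like lesions induced with 0.5% 2,4-dinitrochlorobenzene (DNCB), applied 3 times a week for 6 weeks, so that no group here is free of lesions. AD mice ate normal chow, and HF + AD mice (labelled AD+OB) ate a diet with 60 kcal% fat from 4 weeks before DNCB onwards, so the comparison asks what the high-fat diet adds to lesional skin. The design text also describes sham mice and HF + AD mice given an agent called GHJGS. No sample label names either, and the labels were followed, although the numbering of the deposited tables of the HF + AD mice is that of the group listed as number 4 in the design, which received GHJGS. Whether these mice received it was not settled, and it touches every difference below. The libraries read the 3′ end of each mRNA (QuantSeq), which gives about 1 read position per transcript, so levels are given as CPM (counts scaled to a common library total, with edgeR's TMM factors) without a correction for length.

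Between 9746937 and 13462434 counts were recorded per mouse, and a count of 0 allows 3 counts, or 0.223 to 0.308 CPM (counting error only). Fewer genes were detected in each AD mouse (13100 to 15063) than in any HF + AD mouse (15522 to 16677). Depth differed too, with 9746937 to 11688979 counts in the AD mice and 10726845 to 13462434 in the HF + AD mice. Its part in the number of genes detected was not tested. Whole skin holds several cell types, and some of their marker lists differed between the groups. The summed level of 20 skeletal muscle markers was 2112 to 4848 CPM in the AD mice and 1337 to 3272 CPM in the HF + AD mice, with 3 of 20 markers lower (Acta1, Myl1, Atp2a1), and all 20 were above 0 in every mouse. Keratinocyte markers summed to 3510 to 6019 CPM against 6096 to 10650 CPM, without overlap. Much of this sum was Krt5, at 2234 to 3810 against 4048 to 6649 CPM. Of the 8 markers, 4 were higher (Krt5, Krt14, Krt15 and Dsc3), while 3 had a negative log2 fold change, down to -0.42. Over all genes tested, 4.43% were higher and 4.77% lower (edgeR adjusted p under 0.05). Hair shaft markers (3 of 10 higher, 0 lower; 3697 to 7091 against 5170 to 8912 CPM) and adipocyte markers (2 of 10 higher, 0 lower; 383 to 913 against 280 to 802 CPM, with Lep and Ucp1 too low to be tested and, like Plin1, at 0 in some mice) overlapped, as did those of sebocytes (1 higher and 1 lower of 7; 2210 to 3683 against 1794 to 2915 CPM). Fibroblasts (0 of 7 called; 3297 to 9935 against 3320 to 10349 CPM) and macrophages and dendritic cells (0 of 8 called; 106 to 356 against 155 to 388 CPM, with Cd68, Cd14, Itgax and Lyz2 at 0 in some mice) overlapped too. In such bulk samples, fewer cells of a type and less RNA per cell cannot be told apart.

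OXPHOS takes place in the inner mitochondrial membrane. Complexes I and II pass electrons from NADH and succinate to ubiquinone, complex III passes them to cytochrome c, and complex IV hands them to oxygen. Complexes I, III and IV pump protons on the way, and complex V, the ATP synthase, lets them flow back to make ATP. Most subunits come from nuclear genes and the rest from mitochondrial DNA, which the members here leave out. The transcription factors NRF1, GABPA (NRF2) and YY1 are known to bind promoters of many of these nuclear genes. Nearly all living cells of the skin carry OXPHOS. Complex IV also has subunit isoforms typical of heart and skeletal muscle, which in whole skin can come from the muscle layer under the dermis. Whether other cell types contributed to their levels here was not tested.

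Promoters are shown because the rule for members did not use them and because motifs of factors known to bind such promoters can be counted in them. Stretches of 300 bases (250 before to 50 after the RefSeq start, GRCm38.p6) were found for 70 of the 85 members and searched on both strands for the NRF1 motif (GCGCN followed by TGCGC), the GABPA motif (CCGGAAG) and the YY1 motif (AAGATGGC). Matches of different motifs may overlap at their ends, as the GABPA letters end and the YY1 letters begin with AAG. The NRF1 letters were in 17 of 70 members (24.3%), against 10.4% of the 10653 tested genes with a promoter and 5.19% of all 27025. The YY1 letters were in 11 members (15.7%), against 4.84% and 3.19%. The GABPA letters were in 16 members (22.9%), against 18.4% and 9.93%. The 100 bases before the start are printed for Ndufb4 and Ndufc2, which fell, and for Ndufa8 and Atp5h, which rose, with matches in capitals. Ndufb4 holds the NRF1 letters at 2 places, Ndufa8 at 1 place, Atp5h the GABPA letters at 1 place (with the NRF1 letters elsewhere in its 300 bases), and Ndufc2 none of the motifs searched.
Ndufb4, chr16:37654369-37654468, minus strand: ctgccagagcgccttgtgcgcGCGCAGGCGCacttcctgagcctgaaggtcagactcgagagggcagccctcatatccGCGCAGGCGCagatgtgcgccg
Ndufc2, chr7:97399903-97400002, plus strand: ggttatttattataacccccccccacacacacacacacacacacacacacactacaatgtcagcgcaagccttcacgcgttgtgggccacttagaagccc
Ndufa8, chr2:36049339-36049438, minus strand: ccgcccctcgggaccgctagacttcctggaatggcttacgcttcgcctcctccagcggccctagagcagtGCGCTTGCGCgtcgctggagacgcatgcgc
Atp5h, chr11:115419920-115420019, minus strand: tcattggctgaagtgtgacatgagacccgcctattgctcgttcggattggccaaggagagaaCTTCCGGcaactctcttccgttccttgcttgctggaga
A match is a run of letters and not a measured binding site. In the whole stretches, the NRF1 letters were in 2 of 7 matched members that rose and 2 of 6 that fell, the YY1 letters in 2 and 1, and the GABPA letters in 2 and 0.

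The OXPHOS genes as a whole did not move in 1 direction. They took 1.92 to 2.09% of all counts in the AD mice and 1.80 to 1.98% in the HF + AD mice, so the groups overlapped. Of the 83 members that passed the filter on low counts, 17 (20.5%) passed the test, with 8 higher and 9 lower in the HF + AD mice (edgeR quasi-likelihood test, Benjamini–Hochberg adjusted p under 0.05). Over all 14163 genes tested the share was 9.20% (4.43% higher and 4.77% lower). Most members are highly expressed, however, and among the 2833 most highly expressed genes the share was 22.0% (8.47% higher and 13.5% lower). These include 63 of the members, of which 5 (7.94%) rose and 9 (14.3%) fell, so the members' share was near that of genes of like level. The median log2 fold change was -0.06 over the members, with 36 above and 47 below 0, against 0.02 over all genes tested and -0.07 over the 2833 most highly expressed. At an unadjusted p under 0.05, edgeR gave 11 members higher and 17 lower, 28 of the 83 tested. The share over all genes tested was 25.1% (12.3% higher and 12.8% lower). For 7 members the groups did not overlap (8.43%), against 5.46% of all genes. Neither comparison was made among the most highly expressed genes, so neither allows for the high level of most members. Cox8c had no count in any mouse and Cox7b2 1 count in AD mouse 4, and neither was tested.

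The split between directions depended on scaling. With library totals alone 8 members were higher and 6 lower (57.1% of those called were higher, against 47.1%), and with a correction for GC content 4 were higher and 11 lower (26.7%). With the mean log2 level of the muscle markers as a covariate, 5 were higher and 3 lower. The count fell to 9 when AD mouse 2 was left out, and also when HF + AD mouse 1 or 2 was. It was 10 without mouse 4 or mouse 6 of the HF + AD group and 11 without AD mouse 3. The share called over all genes fell in these fits too. It was 9.20% in the first fit, 5.24% with the muscle covariate and 5.56% without AD mouse 2. Without HF + AD mouse 1 or 2 it was 4.91% and 4.57%. Without HF + AD mouse 4 or 6 it was 5.66% and 6.74%, and without AD mouse 3 it was 7.02%. All 17 kept their sign in all 23 alternative fits.

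**Figure D1:**
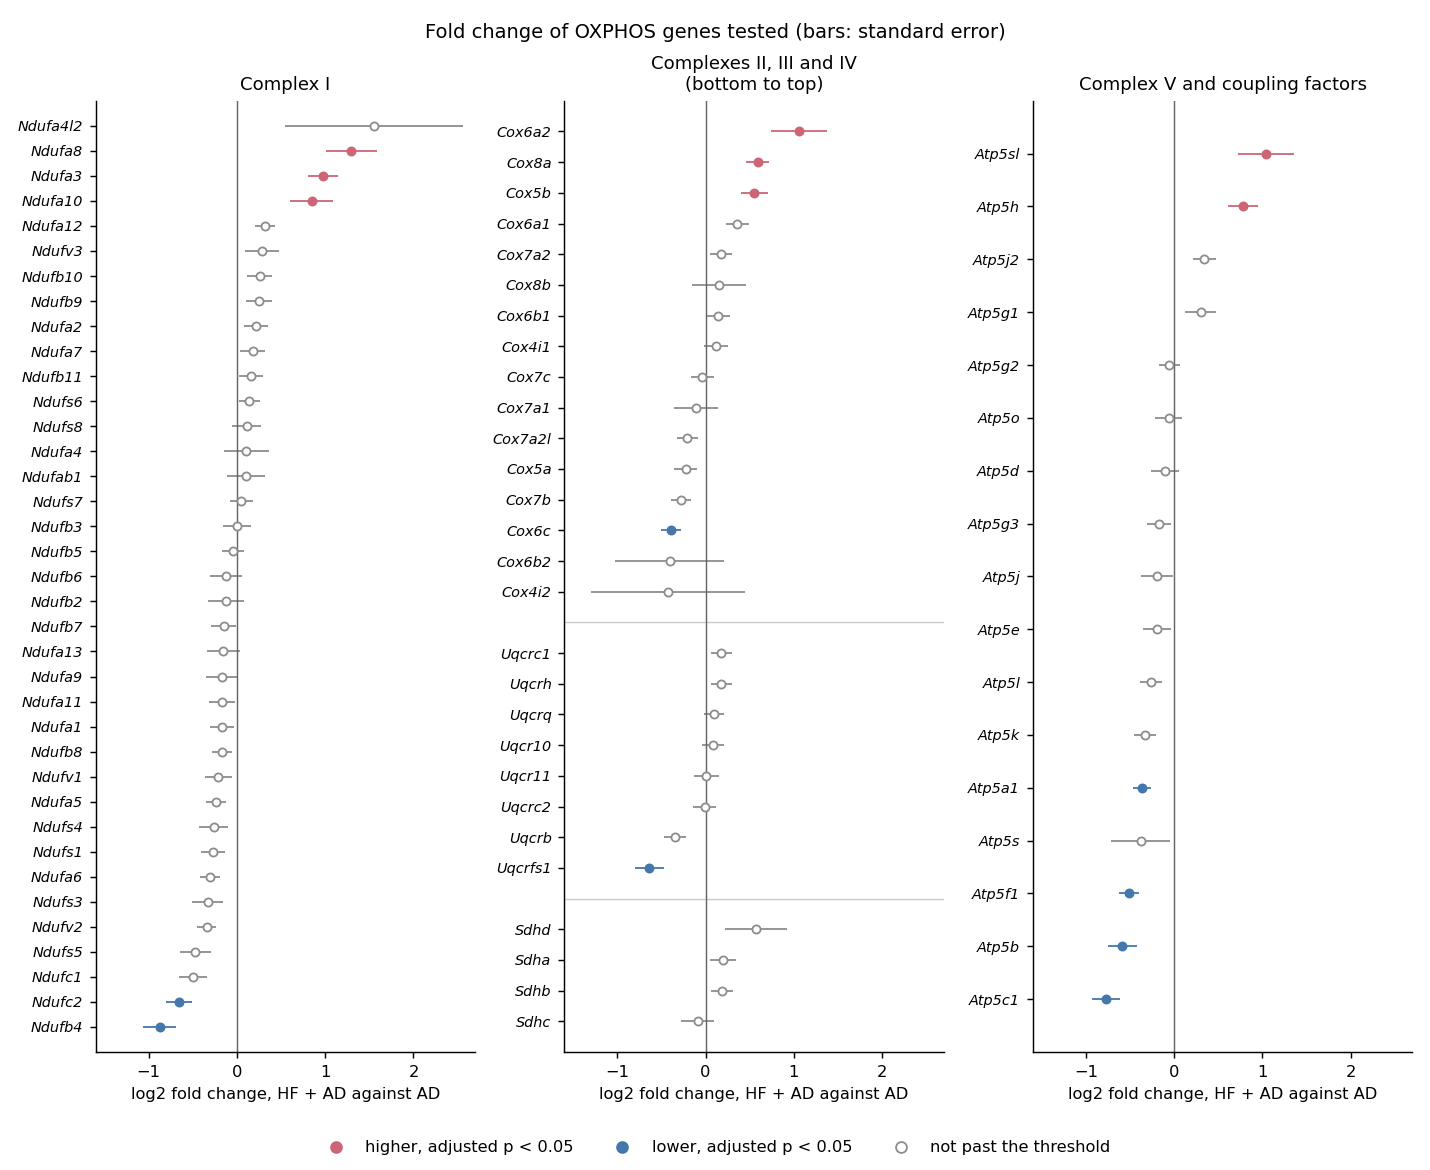
The log2 fold change of HF + AD against AD (x axis) with its standard error is plotted for 82 of the 83 members tested, by complex, with filled points past the adjusted threshold. Red and blue points lie on both sides of 0 in complexes I, IV and V, and no member of complex II passed.

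**Figure D2:**
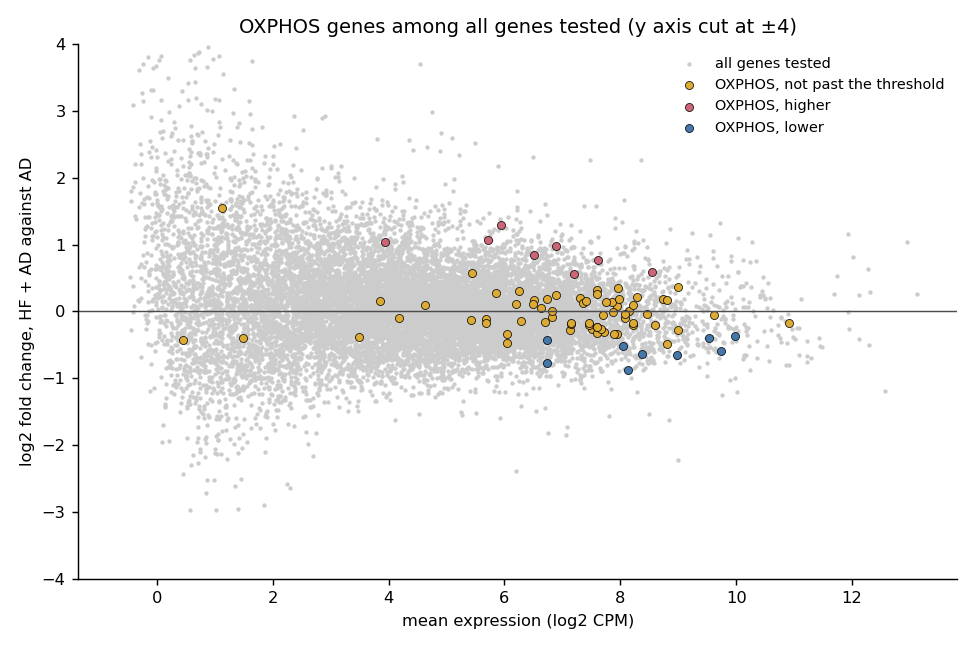
Each point is 1 of the 14163 genes tested, with mean expression (log2 CPM) on the x axis and the log2 fold change of HF + AD against AD on the y axis, and OXPHOS genes are drawn in color. Most members sit at the right, among the highly expressed genes, on both sides of 0, and the 9 that fell (blue) lie further right than most of the 8 that rose (red).

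Complex I, the NADH dehydrogenase, is the largest of the complexes, with core subunits that carry electrons and accessory subunits around them. Of its 38 members, 3 rose and 3 fell (15.8%), while the median log2 fold change was -0.12. The share called was 9.20% over all genes tested and 22.0% among the 2833 most highly expressed. The summed level of complex I was 6087 to 6692 CPM in the AD mice and 5519 to 6124 CPM in the HF + AD mice, with a small overlap.

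Ndufa3, an accessory subunit (chr7:3617373-3620327, plus strand, mm10), was at 80.1, 54.8, 92.0, 66.3 and 84.1 CPM in AD mice 1 to 5, and at 107, 142 and 203 CPM (lowest, median, highest) in the HF + AD mice. Every HF + AD mouse was above every AD mouse. The log2 fold change was 0.98 ± 0.17 (SE), with an edgeR adjusted p of 0.00492, and it passed in all 23 alternative fits (adjusted p 7.38e-06 to 0.0450). Tfpt lies antisense to its 3′ end, and since the strand setting of the counting is not given, its reads cannot be told apart from those of Ndufa3.

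Ndufa8, an accessory subunit on the intermembrane side whose promoter is printed above, had 31.0, 19.9, 49.8, 24.2 and 41.7 CPM in the AD mice. HF + AD mice ran from 48.1 through a median of 66.8 to 151 CPM, with 6 of 7 above all AD mice and only 1 inside their range. It rose by 1.29 ± 0.29 (log2, edgeR adjusted p 0.0134), the largest called rise of the complex, and passed in 22 of 23 alternatives. Ndufa10, a further accessory subunit, was at 49.2, 44.4, 73.3, 61.0 and 83.2 CPM against 64.1, 98.8 and 160 CPM, and 5 of 7 HF + AD mice exceeded the highest AD mouse. Its log2 fold change of 0.85 ± 0.24 (edgeR adjusted p 0.0375) passed in 12 of 23 alternatives. It was chosen for naming after its values were seen, because it passed the test.

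Ndufc2, an accessory subunit of the membrane arm, was at 521, 744, 670, 684 and 589 CPM in the AD mice and at 284, 431 and 494 CPM in the HF + AD mice. All 7 HF + AD mice were below all AD mice. It fell by 0.65 ± 0.14 on the log2 scale (edgeR adjusted p 0.0130), and 22 of 23 alternatives kept the call.

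Ndufb4, another membrane arm subunit, with 2 NRF1 matches in the stretch printed above, was at 472, 513, 350, 306 and 277 CPM against 155, 217 and 293 CPM. Its AD mice spread widely, and 6 of 7 HF + AD mice were below all of them. It fell by 0.88 ± 0.18 (log2, edgeR adjusted p 0.0103), and 22 of 23 alternatives kept the call.

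Ndufv2, an iron–sulfur subunit of the NADH-binding tip, had no overlap between the groups, with 255, 286, 312, 243 and 258 CPM against 189, 213 and 229 CPM. Its log2 fold change was -0.34 ± 0.11 with an edgeR adjusted p of 0.0552, just outside the threshold. Ndufc1, another accessory subunit, was also just outside (-0.49 ± 0.16, edgeR adjusted p 0.0587). The members of complex I that did not pass ran from -0.49 to 1.55, and the highest of these was Ndufa4l2, a paralog of Ndufa4 known to be induced by low oxygen. It had 0, 0, 2.42, 0.354 and 1.90 CPM in the AD mice and 1.02, 2.87 and 5.43 CPM in the HF + AD mice, few reads in every mouse, and 1.55 has an SE of 1.01 (edgeR adjusted p 0.367). On log2(CPM + 1) its exact two-sided permutation p was 0.0303, not adjusted over genes. Shmt2 lies antisense to the 3′ end of Ndufa4l2 and could share its few reads.

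Complex II, the succinate dehydrogenase, also belongs to the TCA cycle and is wholly nuclear-encoded. None of its 4 subunits passed the test, by edgeR, at an adjusted or an unadjusted p under 0.05. Its summed level was 488 to 581 CPM in the AD mice and 517 to 650 CPM in the HF + AD mice. Sdha, the flavoprotein, had a log2 fold change of 0.20 ± 0.14 (edgeR adjusted p 0.433), and Sdhb, the iron–sulfur subunit, 0.18 ± 0.12 (0.384). The membrane anchors Sdhc and Sdhd were at -0.09 ± 0.19 (edgeR adjusted p 0.811) and 0.58 ± 0.35 (0.332). In the AD group, Sdhd had the widest spread of the 76 members with at least 20 CPM on average: 21.6, 22.4, 52.0, 62.5 and 10.1 CPM in the AD mice, against 30.4, 52.5 and 75.9 CPM in the HF + AD mice.

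Complex III, the cytochrome bc1 complex, had 8 members tested, of which 1 fell (12.5%) and none rose. In either direction, 9.20% of all genes tested and 22.0% of the 2833 most highly expressed were called. Uqcrfs1, the Rieske iron–sulfur protein that takes electrons from ubiquinol, was at 420, 552, 533, 310 and 289 CPM in the AD mice and at 238, 260 and 321 CPM in the HF + AD mice. The HF + AD mice were close together, and 6 of 7 were below all AD mice. It fell by 0.64 ± 0.16 on the log2 scale (edgeR adjusted p 0.0220), and 18 of 23 alternatives kept the call. Uqcrb, a small accessory subunit, had 294, 276, 284, 270 and 284 CPM against 180, 224 and 284 CPM, with a log2 fold change of -0.34 ± 0.13 that did not pass (edgeR adjusted p 0.0946). Part of its last 300 bases is near-identical to 3 other genes. Uqcrc1 and Uqcrh, a core protein and the hinge protein, were at 0.18 ± 0.12 each (edgeR adjusted p 0.370 and 0.394).

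Complex IV, the cytochrome c oxidase, had 16 members tested, of which 3 rose and 1 fell (25.0%). This is near the 22.0% called among the 2833 most highly expressed genes, against 9.20% over all genes tested. Cox8a, the widely expressed form of subunit 8 (chr19:7215153-7217616, minus strand), was at 253, 249, 373, 279 and 297 CPM in the AD mice and at 397, 424 and 534 CPM in the HF + AD mice. The groups did not overlap. It rose by 0.59 ± 0.13 (log2, edgeR adjusted p 0.0123), and 21 of 23 alternatives kept the call. The correction for GC content gave 0.37 and an adjusted p of 0.0722.

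Cox5b, a matrix-side subunit, was at 152, 92.5, 111, 113 and 106 CPM against 141, 156 and 234 CPM. AD mouse 1 lay inside the range of the HF + AD mice, and 5 of 7 of these were above all AD mice. It rose by 0.55 ± 0.15 (log2, edgeR adjusted p 0.0340) and passed in 14 of 23 alternatives. It too was chosen for naming after its values were seen, and 1 near-identical gene could share its reads. Cox6c, which fell, was at 972, 894, 752, 817 and 874 CPM in the AD mice and at 559, 623 and 752 CPM in the HF + AD mice, with 6 of 7 below all AD mice. Its log2 fold change of -0.39 ± 0.12 (edgeR adjusted p 0.0446) passed in 9 of 23 alternatives, and its reads could be shared with Cox6c2 and with the antisense gene Vps13b.

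Subunits 6a, 7a and 8 of complex IV each have a heart and skeletal muscle form. Of the 3 muscle forms, Cox6a2 rose and the others did not pass. Cox6a2 (chr7:128205435-128206387, minus strand) was at 37.9, 34.8, 16.2, 51.8 and 20.3 CPM in the AD mice and at 27.9, 71.5 and 102 CPM in the HF + AD mice. The groups overlapped, and 4 of the 7 HF + AD mice exceeded the highest AD mouse. The log2 fold change was 1.06 ± 0.32 (edgeR adjusted p 0.0449), and 12 of 23 alternatives kept the call (adjusted p 0.0135 to 0.112). Itgad lies antisense to its 3′ end.

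Cox7a1 was at 14.5 to 25.5 CPM in the AD mice and at 12.5, 14.7 and 26.0 CPM in the HF + AD mice, which overlapped throughout (-0.10 ± 0.25, edgeR adjusted p 0.842). Cox8b was at 13.7, 23.0, 8.49, 13.4 and 8.06 CPM against 11.7, 13.6 and 25.0 CPM (0.16 ± 0.31, edgeR adjusted p 0.802). The skeletal muscle markers, by contrast, had a negative log2 fold change in 17 of 20 genes, with a median of -0.65. Myl1, a myosin light chain, was at -1.63 (edgeR adjusted p 0.00418), Acta1, skeletal actin, at -0.72 (0.0481), and Atp2a1, the calcium pump of the muscle reticulum, at -0.82 (0.0340).

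Set against the summed muscle markers, a ratio chosen after the values were seen, Cox6a2 was at 0.978 ± 0.498 CPM per 100 CPM of markers in the AD mice (SD, n = 5) and 3.44 ± 0.914 in the HF + AD mice (SD, n = 7). Of the AD mice, AD mouse 4 was highest at 1.84, and HF + AD mouse 5 was lowest at 1.67, so the groups overlapped at 1 mouse each. Cox8b per 100 CPM of markers was 0.388 ± 0.0986 against 0.767 ± 0.102 without overlap. Cox7a1 per 100 CPM was 0.597 ± 0.232 against 0.919 ± 0.246, with overlap. The exact two-sided permutation p over mice was 0.00379 for Cox6a2, 0.00126 for Cox8b (the smallest that 5 against 7 mice allow) and 0.0505 for Cox7a1. Adjusted (Benjamini–Hochberg) over these ratios and the shares of the muscle forms given further on, 6 in all, the permutation p was 0.0114, 0.00758 and 0.101. These are no independent support, since the ratios were chosen after the values were seen. Their denominator, the summed markers, already had a median of 3384 CPM in the AD mice against 1923 CPM in the HF + AD mice. With a lower denominator the ratio rises even for a gene whose own level stays the same. Cox8b and Cox7a1 taken alone did not pass (edgeR adjusted p 0.802 and 0.842). With the muscle marker level as a covariate, the log2 fold change of Cox6a2 was 1.41 (edgeR adjusted p 0.0232). In the same fit Cox8b was at 0.60 (edgeR adjusted p 0.219) and Cox7a1 at 0.0133 (0.985), and neither passed. The covariate is made from the same markers as the ratios, so this fit is no independent support either.

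The widely expressed partners were at far higher levels. Cox6a1 had 502, 481, 390, 390 and 428 CPM in the AD mice and 485, 550 and 759 CPM in the HF + AD mice, with a log2 fold change of 0.36 ± 0.13 that did not pass (edgeR adjusted p 0.0980). Cox7a2 had 509, 340, 369, 436 and 437 CPM against 416, 473 and 540 CPM (0.18 ± 0.12, edgeR adjusted p 0.401). Cox6a2 made up 6.80 ± 3.06% of Cox6a1 and Cox6a2 together in the AD mice (SD, n = 5) and 10.7 ± 4.13% in the HF + AD mice (SD, n = 7), with overlap. For the other pairs the muscle share was 4.27 ± 0.641% against 3.55 ± 0.979% (Cox7a1) and 4.60 ± 2.48% against 3.30 ± 1.04% (Cox8b), with overlap. The exact permutation p for the shares was 0.106, 0.179 and 0.225, in the order given (adjusted 0.159, 0.215 and 0.225), so no difference in shares beyond the spread between mice was found.

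**Figure D3:**
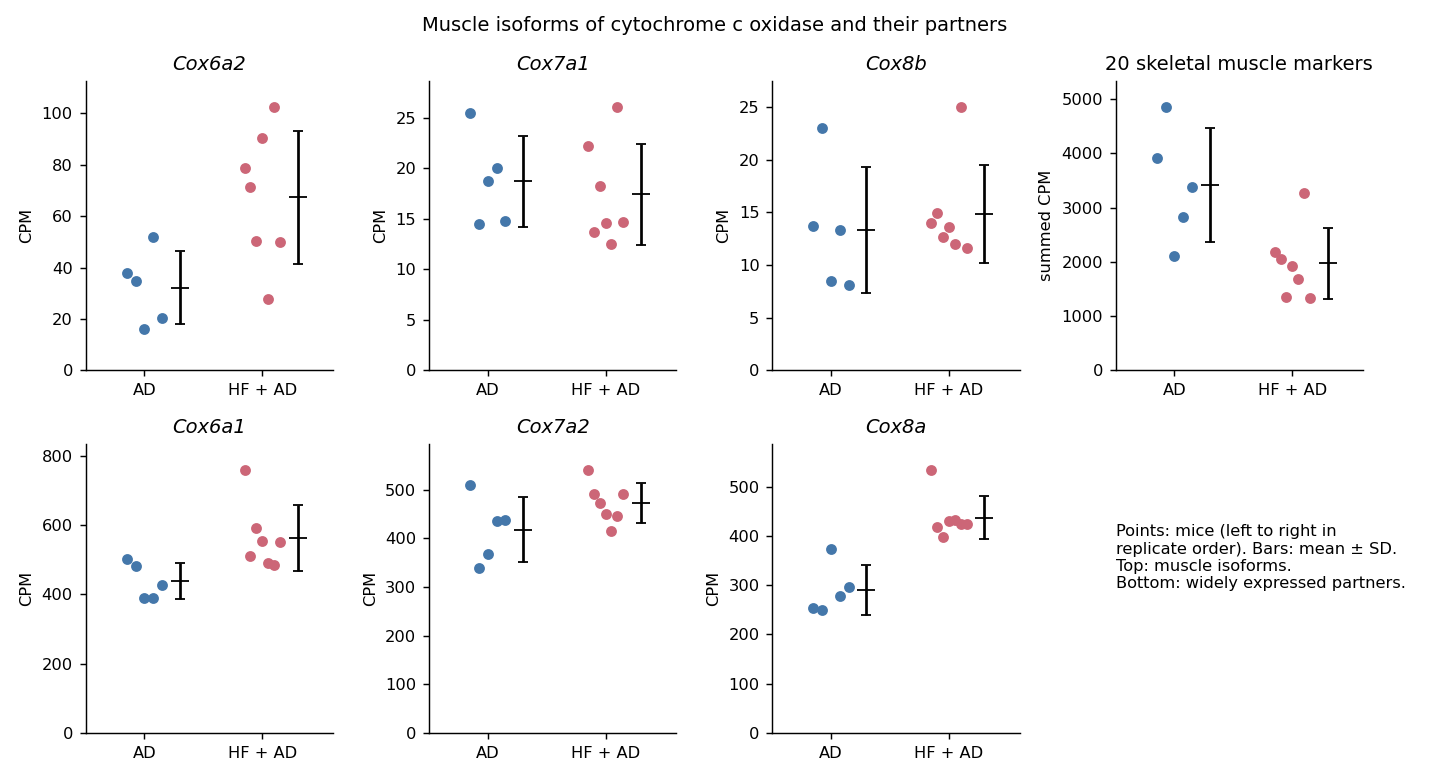
CPM per mouse (y axis) is plotted for the muscle forms Cox6a2, Cox7a1 and Cox8b (top) and their widely expressed partners Cox6a1, Cox7a2 and Cox8a (bottom), with the summed CPM of the 20 skeletal muscle markers at the right, and bars give the mean and SD of 5 AD and 7 HF + AD mice. Cox6a2 and Cox8a are higher in the HF + AD mice while the muscle markers are mostly lower.

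The other restricted forms of complex IV were low. Cox4i2, the lung form of subunit 4, was at 0 to 2.63 CPM in the AD mice and 0.543 to 2.06 CPM in the HF + AD mice (-0.43 ± 0.87, edgeR adjusted p 0.811). Cox6b2, the testis form of subunit 6b, was at 0.817 to 6.07 CPM and 1.22 to 3.91 CPM (-0.40 ± 0.62, edgeR adjusted p 0.739). Neither difference was larger than the spread between mice.

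Complex V, the ATP synthase, had 17 members tested, of which 2 rose and 4 fell (35.3%). The share was 9.20% over all genes tested and 22.0% among the 2833 most highly expressed. Of the 2 that rose, Atp5h is a subunit, while Atp5sl, as said above, is not. The median log2 fold change was -0.19, with 13 of 17 below 0. The summed level of complex V was 6727 to 8573 CPM in the AD mice and 5937 to 6993 CPM in the HF + AD mice, with overlap. The 5 subunits of the F1 head (Atp5a1, Atp5b, Atp5c1, Atp5d and Atp5e), in which ATP is made, all had a negative log2 fold change. Of these 5, 3 (60.0%) fell, against 13.5% of the 2833 most highly expressed genes. This is a share of few genes, and the highest among the parts of the complex. Of the 4 subunits of the peripheral stalk 1 fell and 1 rose. None of the 3 genes of the membrane ring or of the 3 other membrane subunits was called. The sum of the F1 subunits was 2612 to 3335 CPM against 1986 to 2849 CPM.

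Atp5c1, the gamma subunit that turns inside the head (chr2:10056016-10080510, minus strand), was at 123, 139, 125, 151 and 165 CPM in the AD mice and at 54.1, 84.1 and 101 CPM in the HF + AD mice. All 7 HF + AD mice were below all AD mice. The log2 fold change was -0.77 ± 0.16 (edgeR adjusted p 0.00969), and all 23 alternatives kept the call (adjusted p 0.000371 to 0.0411). The search found 2 other genes near-identical to part of its last 300 bases.

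Atp5b, the catalytic beta subunit, was at 1266, 1263, 758, 961 and 1031 CPM against 543, 656 and 980 CPM, with 5 of 7 HF + AD mice below all AD mice. It fell by 0.59 ± 0.16 (log2, edgeR adjusted p 0.0346), and 12 of 23 alternatives kept the call. Atp5a1, the alpha subunit, was at 1296, 1223, 1159, 1019 and 1139 CPM against 839, 919 and 956 CPM, without overlap. Its log2 fold change of -0.37 ± 0.10 (edgeR adjusted p 0.0355) passed in 10 of 23 alternatives. Like Ndufa10, it was chosen after its values were seen, because it passed. Atp5d and Atp5e, the small delta and epsilon subunits, were at -0.10 ± 0.15 (edgeR adjusted p 0.732) and -0.20 ± 0.16 (0.484).

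The peripheral stalk, which holds the head still, moved both ways. Atp5f1, its subunit b, was at 379, 343, 321, 314 and 248 CPM in the AD mice and at 216, 220 and 255 CPM in the HF + AD mice, with 6 of 7 below all AD mice. It fell by 0.51 ± 0.12 (log2, edgeR adjusted p 0.0151), and 21 of 23 alternatives kept the call. Atp5h, its subunit d, went the other way.

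Atp5h had 136, 101, 131, 141 and 179 CPM in the AD mice and 166, 254 and 297 CPM in the HF + AD mice, with 6 of 7 above all AD mice. It rose by 0.78 ± 0.17 (log2, edgeR adjusted p 0.0126), and 22 of 23 alternatives kept the call. Near-identical genes, 2 for Atp5f1 and 3 for Atp5h, could share their reads. Atp5j and Atp5o, the other stalk subunits, did not pass.

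None of the 3 genes for subunit c of the membrane ring, Atp5g1, Atp5g2 and Atp5g3, passed. Atp5g3 had the highest level of all members, at 2055 ± 410 CPM in the AD mice (SD, n = 5) and 1826 ± 165 CPM in the HF + AD mice (SD, n = 7), and its log2 fold change was -0.17 ± 0.13 (edgeR adjusted p 0.462). The membrane subunits Atp5j2, Atp5k and Atp5l did not pass either. Atp5sl, which carries a coupling factor name, was at 7.17, 3.73, 7.07, 13.5 and 15.4 CPM against 15.2, 19.8 and 21.6 CPM. It rose by 1.04 ± 0.31 (log2, edgeR adjusted p 0.0470), with 6 of 7 HF + AD mice over the highest AD mouse, and passed in 8 of 23 alternatives.

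**Figure D4:**
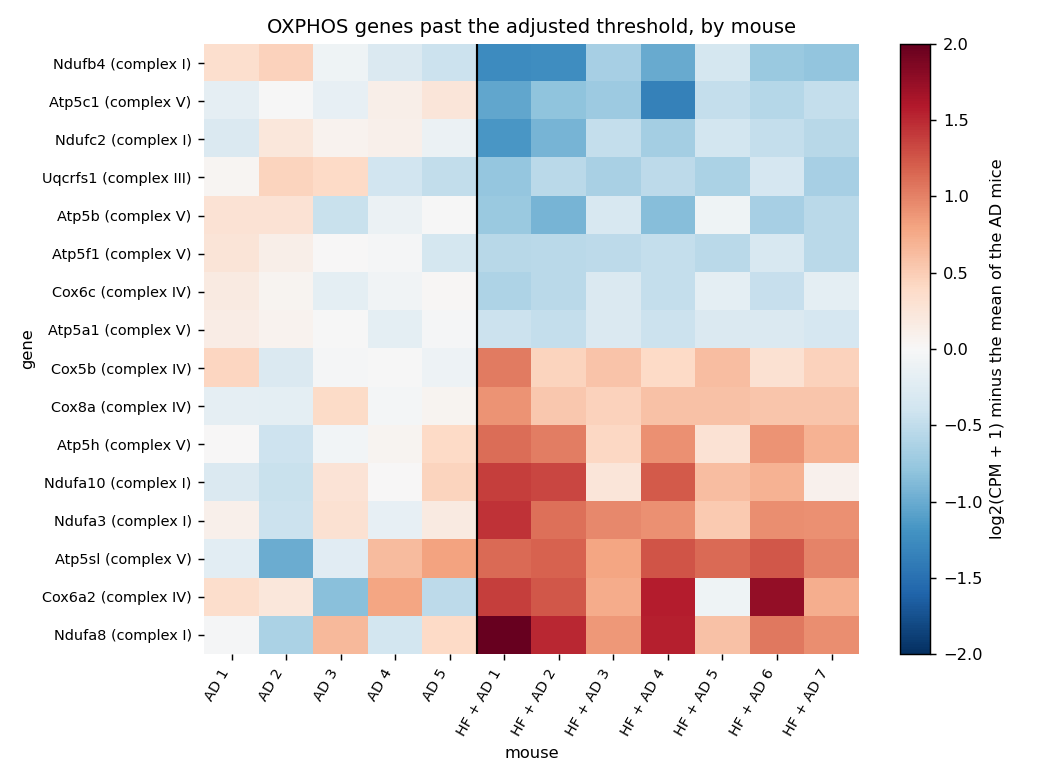
Rows are 16 of the 17 members past the threshold and columns the 12 mice, and the color is log2(CPM + 1) minus the mean of the AD mice (blue lower, red higher). The 8 genes at the top are lower and the 8 at the bottom higher in most HF + AD mice, and HF + AD mouse 5 is the palest of these for several genes, such as Cox6a2 and Atp5b.

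Whichever mouse was left out, 8 of the 17 calls were kept (Ndufa3, Ndufa8, Ndufb4, Ndufc2, Cox8a, Atp5c1, Atp5f1 and Atp5h), with the highest edgeR adjusted p at 0.0391 for Atp5f1. Uqcrfs1 lost its call when AD mouse 2 or 3 was left out (edgeR adjusted p 0.0659 and 0.0536). Another 7 lost it with more of the mice. Cox5b was lost without any of AD mice 2 to 5 or of HF + AD mice 1 and 2 (edgeR adjusted p up to 0.0818), and Ndufa10 without any of AD mice 1 to 4 or of HF + AD mice 1, 2, 4 and 6 (up to 0.0908). For Cox6c these were all AD mice but mouse 3 and HF + AD mice 1, 2, 3, 4 and 6 (edgeR adjusted p up to 0.0927). HF + AD mice 1, 2, 4, 6 and 7 each ended the calls of Atp5b, Atp5a1 and Cox6a2 when left out, as did AD mice 1, 2 and 5 for Atp5b (edgeR adjusted p up to 0.0900), 1, 2 and 3 for Atp5a1 (up to 0.0797) and 2, 3 and 5 for Cox6a2 (up to 0.0965). Atp5sl kept its call only without AD mouse 4 or 5 (edgeR adjusted p up to 0.0988 otherwise).

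Among the members that passed, those that fell were at higher levels (median 333 CPM) than those that rose (105 CPM), while the rest had a median of 179 CPM. Median transcript GC content was 52.5% for the members that rose, 50.2% for those that fell and 51.3% for the rest. Over all genes tested the medians were 53.1% for genes that rose, 47.5% for those that fell and 50.2% for all genes. Of the 17, 5 have a near-identical gene elsewhere in the genome (95% identity over at least 75 of the last 300 bases), against 27 of all 85 members. The median spread between mice, as the SD of log2(CPM + 1) over 76 members, was 0.24 in the AD group and 0.18 in the HF + AD group.

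Other mitochondrial genes were taken from 5 lists by function, and with all mice no gene of these lists passed by edgeR in the upward direction (under some alternatives 1 gene did in 3 of the lists). Of their 116 genes, 11 fell (9.48%), which may be read against 4.77% of all genes tested and 13.5% of the 2833 most highly expressed ones. Of 18 genes of pyruvate dehydrogenase and the TCA cycle, 4 fell (22.2%), and the summed level was 2786 to 3287 CPM in the AD mice and 2126 to 2719 CPM in the HF + AD mice, without overlap. Pdha1, the alpha subunit of pyruvate dehydrogenase, had a median of 360 CPM against 195 CPM and a log2 fold change of -0.86 ± 0.17 (edgeR adjusted p 0.00791). Dld, which serves several dehydrogenase complexes, was at -0.80 ± 0.18 (edgeR adjusted p 0.0151). Idh3b and Suclg1, enzymes of the cycle itself, were at -0.64 ± 0.17 and -0.49 ± 0.14 (edgeR adjusted p 0.0279 and 0.0370).

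Of 45 OXPHOS assembly factors tested, 2 fell (4.44%), a share near that over all genes. Lrpprc, which stabilizes mitochondrial mRNAs and is needed to build complex IV, ran from 116 through 165 to 227 CPM in the AD mice and from 29.2 through 59.6 to 79.0 CPM in the HF + AD mice. The groups were far apart, and the log2 fold change of -1.45 ± 0.22 (edgeR adjusted p 0.00379) was larger in size than that of any member that passed. Ttc19, a factor for complex III, did not overlap either (-0.86 ± 0.17, edgeR adjusted p 0.00869). Cox16, a factor for complex IV, was at -0.44 ± 0.14 and did not pass (edgeR adjusted p 0.0655).

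Of 21 genes of the mitochondrial membranes and protein import, 4 (19.0%) fell: the import receptors Tomm20 (-0.59 ± 0.13, edgeR adjusted p 0.0140) and Tomm70a (-0.47 ± 0.12, 0.0241), the fusion protein Opa1 (-0.53 ± 0.14, 0.0269) and the chaperonin Hspd1 (-0.45 ± 0.13, 0.0458). Of 17 regulators of mitochondrial biogenesis, 1 (5.88%) fell, again near the share over all genes: the coactivator Pprc1 (-0.81 ± 0.21, edgeR adjusted p 0.0237). The nuclear receptor Esrra had a log2 fold change of 0.46 ± 0.18 (edgeR adjusted p 0.124), and the mitochondrial RNA polymerase Polrmt 0.67 ± 0.29 (0.158). None of the 15 electron carriers and feeders passed by edgeR, with 2 higher and 2 lower at an unadjusted p under 0.05. Coq7, of ubiquinone synthesis, was at -0.49 ± 0.17 (edgeR adjusted p 0.0868) and Dhodh, which feeds electrons to ubiquinone, at 0.69 ± 0.27 (0.110). Cytochrome c itself (Cycs) was at -0.34 ± 0.14 (edgeR adjusted p 0.134).

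**Figure D5:**
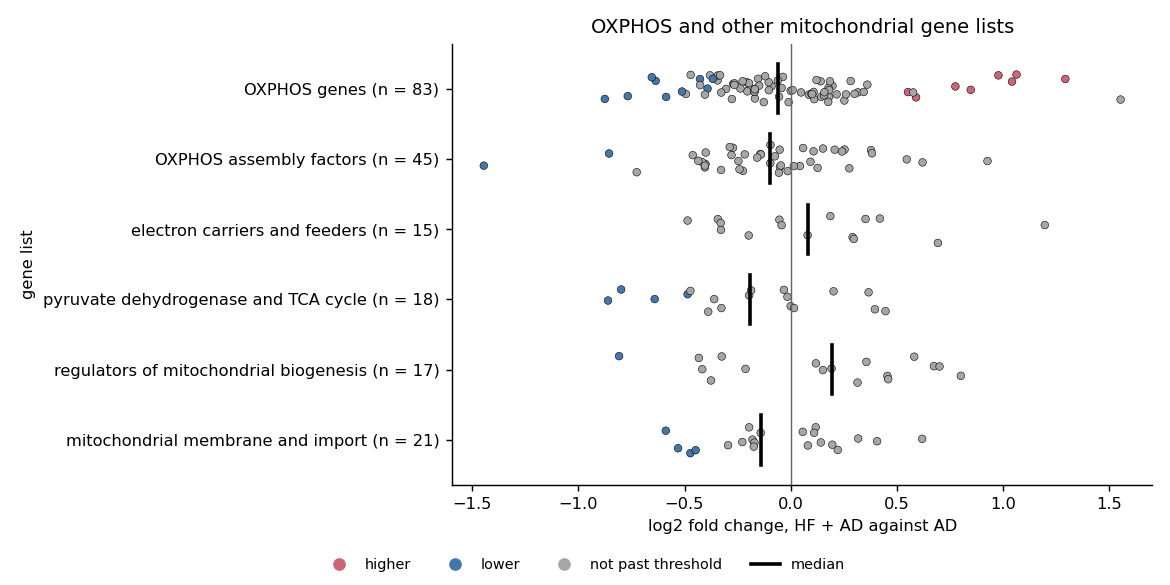
The log2 fold change of HF + AD against AD (x axis) is plotted for each tested gene of the OXPHOS genes and of the 5 other mitochondrial lists (y axis), with bars at the medians. The OXPHOS genes have points past the threshold on both sides of 0, while in the other lists the points past the threshold, 0 to 4 a list, are all on the lower side.

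Of the 20 skeletal muscle markers, 17 had a negative and 3 a positive log2 fold change, and only 3 passed the test as lower. For comparison, 4.77% of all genes tested and 13.5% of the 2833 most highly expressed were lower. The summed level of the markers overlapped between the groups. Since most markers leaned downward and 9 OXPHOS genes fell, a fit with the muscle marker level as a covariate was set beside the first. Over all genes the calls went from 1303 to 742 with the covariate. Atp5c1, Ndufb4 and Ndufc2 were still lower in it, and Ndufa3, Ndufa8, Atp5h, Cox8a and Cox6a2 still higher. The log2 fold change of Uqcrfs1 was -0.56 with the covariate and -0.64 without it, that of Atp5b -0.53 and -0.59, that of Atp5f1 -0.44 and -0.51, and that of Cox6c -0.41 and -0.39. These 4 genes no longer passed (edgeR adjusted p 0.0770, 0.136, 0.0632 and 0.0969). Atp5a1, Ndufa10, Cox5b and Atp5sl did not pass in that fit either, with their directions kept. The part of the 4 higher keratinocyte markers and of the larger number of detected genes in the HF + AD mice was not tested.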

How the data were processed

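QuantSeq 3′ libraries were made from skin RNA of 12 mice, 5 AD and 7 HF + AD. Per mouse, the authors deposited 1 table of raw counts by gene symbol, not normalized. The submitters' processing notes name Bowtie2, bedtools and the build mm10 (GRCm38). The gene annotation, the strand setting and any removal of duplicate reads are not given in the sources used here. Members and lists were chosen with earlier results of these data known.

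The 23282 entries were fitted together with edgeR 4.0.16 in R 4.3.3 (TMM factors 0.944 to 1.04, filterByExpr, quasi-likelihood test on group alone, p-values adjusted by Benjamini–Hochberg over 14163 genes, threshold 0.05). No columns were left out, and 35 symbols listed more than once were kept apart. CPM used TMM-scaled totals. For named members, an exact permutation test (two-sided) was also run on mean log2(CPM + 1) over 792 splits, with a smallest possible p of 0.00126. Of 29 named members tested, 18 had an exact permutation p under 0.05, and counts over named members are not independent of the choice of names.

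Named were the muscle forms and their partners, other restricted forms, Sdha to Sdhd, in each of complexes I, III, IV and V the member of highest level, the 2 largest falls and the 2 largest rises, and the 10 members of smallest p, 31 in all. Of these, 1 was tested and is counted but is not reported here. From each pathway list up to 3 genes of smallest p were named, and Suclg1 and Hspd1 were added after their values were seen because they passed. Ndufa10, Cox5b and Atp5a1, which passed, and Ndufv2, Ndufc1, Atp5d and Atp5e, which did not, were also added after their values were seen.

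The same replicate numbers occur in both groups. Deviations from the group means correlated at -0.0815 to 0.0389 between mice of 1 number, and no mouse correlated best with its own number, so the numbers were not taken to pair the mice. No 2 libraries agreed within sampling noise (chi-square per degree of freedom at least 21.7).

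Alternatives were DESeq2 1.42.0 size factors and Wald test, library totals, no filter, at least 10 counts in every mouse, limma-trend (limma 3.58.1), the replicate number as a block, a robust prior, a GC correction in 20 bins, the mean log2 CPM of the muscle markers as a covariate, a pseudocount of 0.1 in place of 1, and leaving out each mouse. Near-identical genes were sought with BLAST+ 2.17.0 in GENCODE M21 transcripts, and neighbors within 500 bases of the 3′ end were read from the same annotation. Promoter sequences were taken from RefSeq (GRCm38.p6). For 55 of 70 members a GENCODE transcript start lay in the last 50 bases of the stretch. Python 3.11.15, NumPy 2.4.6, pandas 2.3.3 and matplotlib 3.10.9 were used, and the fits were tested on simulated data.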

Additional observations from a re-analysis of the deposited data

Results flagged for a closer look

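Values of members that stood far from the rest of their group were sought in 76 groups of mice, of which chance alone would single out about 1 in 20. HF + AD mouse 1 had 534 CPM of Cox8a, with the other HF + AD mice at 397 to 432 CPM, and 759 CPM of Cox6a1, with the others at 485 to 591 CPM. HF + AD mouse 6 had 25.0 CPM of Cox8b, with the others at 11.7 to 14.97 CPM, and its Cox8b share of Cox8a and Cox8b together was 5.56%, with the others at 2.56 to 3.45%. The same mouse had 255 CPM of Atp5f1, with the others at 216 to 228 CPM, and the highest summed level of skeletal muscle markers of its group, 3272 CPM against 1337 to 2175 CPM in the others. AD mouse 4 held the single count of Cox7b2, 0.0885 CPM, while the other AD mice were at 0.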

How the results depend on the processing

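The number of OXPHOS genes called was 17 (8 higher, 9 lower) and lay between 13 and 20 with DESeq2 size factors, library totals, other filters, DESeq2's Wald test, limma-trend, a robust prior and the GC correction, which gave 4 higher and a median log2 fold change of -0.15. With the muscle marker level as a covariate it was 8 (5 higher, 3 lower), with a median log2 fold change of 0.00786. The replicate number as a block, possible for replicates 1 to 5 only, gave 2 (1 higher, 1 lower), and the same mice without the block 9 (5 higher, 4 lower). Both of these fits leave out HF + AD mice 6 and 7, and the part of the number or the choice of mice was not tested. Leaving out each mouse gave 9 to 18 (4 to 7 higher, 5 to 11 lower). Over all genes, 9.20% were called in the first fit and 5.24% with the muscle covariate. With the block it was 1.32%, with the same mice without it 3.42%, and without each mouse 4.57 to 10.4%. The number of named genes with an exact permutation p under 0.05 stayed within 1.5 times of 18 under a pseudocount of 0.1 and without each mouse (16 to 20). Over all genes, the median log2 fold change was 0.02 and lay between -0.05 (GC correction) and 0.15 (limma-trend).

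Of the values of single named genes under an alternative, 576 kept direction and side of the threshold, 78 lost a call, 1 gained one (Uqcrb without HF + AD mouse 5, -0.41, adjusted p 0.0359) and 9 changed sign, all in genes that had not passed. These were Sdhc with the muscle covariate (0.0614) and between -0.191 and 0.0854 without each mouse, Cox7a1 with the covariate (0.0133) and between -0.228 and 0.0372 without each mouse, Cox8b with the GC correction (-0.0413) and between -0.0180 and 0.446 without each mouse, Uqcrc1 with the GC correction (-0.0501), Cox4i2 with the replicate block (0.0137), and Cox6b2 between -0.645 and 0.00542 without each mouse. For the other 5 lists, 32 counts of genes called moved by over 1.5 times, in either direction of change. The cause was not tested. Cox4i2 and Ndufa4l2 had 0 counts in some mice, so their fold changes are imprecise.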
